A study of Mus musculus with 4 samples.

Results

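The footprints of 5 nucleolar proteins of ribosome biogenesis were followed in MLE-12 cells, an immortalised line of mouse lung epithelium that stands in for alveolar type 2 cells. The 5 genes were Ncl (ENSMUSG00000026234), Npm1 (ENSMUSG00000057113), Fbl (ENSMUSG00000046865), Nop56 (ENSMUSG00000027405) and Nop58 (ENSMUSG00000026020), taken by gene ID as 5 of the 53465 IDs in the count table. Control cells (replicates 1 and 2) were set against cells exposed for 12 h to 5 µM of the nitroarene 1-nitropyrene, which is found in diesel exhaust (replicates 2 and 3). The study was set up to look at translation under the compound. All libraries came from this line alone, and the labels do not say whether the 2 libraries of a group come from separate cultures. The p-values thus cover only the spread between these libraries, and that spread may be technical. In the main edgeR fit that spread came from the trend over all tested genes, not from each gene's own libraries. The symbols of the 5 genes were supplied with their IDs. The other IDs could not be tied to symbols, so lung cell markers and the wider lists of ribosome assembly genes were not analysed here.

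Ribosomes are assembled in the nucleolus, where ribosomal RNA is transcribed by RNA polymerase I, cut, chemically modified and joined to ribosomal proteins. Nucleolin, the product of Ncl, is an abundant RNA-binding protein that acts in ribosomal RNA transcription and in the first cuts of its precursor. Nucleophosmin, encoded by Npm1, is a histone chaperone and a scaffold of the outer, granular layer of the nucleolus, where subunits mature. Fibrillarin, the product of Fbl, is the methyltransferase of the box C/D small nucleolar ribonucleoproteins, which methylate ribosomal RNA at sites chosen by a small nucleolar RNA (snoRNA). Nop56 and Nop58 are related scaffold proteins that hold fibrillarin and the guide RNA together in the same particle. A footprint is the stretch of mRNA that a ribosome shields from nuclease, so a gene's footprint count moves with the amount of its mRNA and with how densely ribosomes occupy it, and these cannot be told apart here.

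In GRCm38.p6, the RefSeq annotation places Ncl on chromosome 1 from 86344719 to 86359455, Nop58 on chromosome 1 from 59684961 to 59711510, and Nop56 on chromosome 2 from 130274367 to 130279313. Npm1 lies on chromosome 11 from 33152498 to 33164142 and Fbl on chromosome 7 from 28168893 to 28179269. Ncl, Nop56 and Nop58 hold genes of other small RNAs within their span, whereas none is annotated within Npm1 or Fbl. The span of Ncl holds 2 snoRNA genes (Snora75 and Snord82) and a microRNA gene. That of Nop56 holds 5 snoRNA genes, among them Snord110 and Snord57, and its end overlaps the start of the annotated span of Idh3b. That of Nop58 holds 4 snoRNA genes, among them Snord70 and Snord11. The spans of these genes thus hold snoRNA genes as well as the coding sequence of a nucleolar protein. How reads over the nested genes were assigned is not given in the sources used here, and their part in the counts was not tested. RefSeq also lists a related gene, Fbll1, and a pseudogene, Fbl-ps2, for Fbl, and Npm1 is known to have processed pseudogenes in the mouse. How reads that match several copies were counted is not known, so the counts of Fbl and Npm1 are uncertain in this respect.

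A stretch of upstream sequence is shown for Ncl, Nop56 and Nop58, because the promoter windows used here held no entry for Npm1 and Fbl. It was taken from RefSeq promoter windows on GRCm38.p6, from 250 to 46 bases before the start that each window is built on. For Ncl that start is the edge of the span given above. For Nop56 and Nop58 it lies inside the span, and their stretches end at the base just before the span. Each is written 5′ to 3′ along the gene's own strand, and capitals mark every match to the GC box GGGCGG or its reverse complement CCGCCC. The coordinates are chr1:86359501-86359705 (minus strand) for Ncl, chr2:130274162-130274366 (plus strand) for Nop56 and chr1:59684756-59684960 (plus strand) for Nop58.
Ncl: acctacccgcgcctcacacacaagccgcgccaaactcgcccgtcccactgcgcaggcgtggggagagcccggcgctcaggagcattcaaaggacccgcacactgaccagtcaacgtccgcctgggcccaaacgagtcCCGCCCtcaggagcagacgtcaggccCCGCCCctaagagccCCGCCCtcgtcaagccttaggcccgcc
Nop56: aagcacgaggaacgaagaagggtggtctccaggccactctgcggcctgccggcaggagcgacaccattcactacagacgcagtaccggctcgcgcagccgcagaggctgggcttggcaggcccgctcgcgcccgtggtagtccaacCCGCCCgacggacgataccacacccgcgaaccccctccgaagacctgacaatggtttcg
Nop58: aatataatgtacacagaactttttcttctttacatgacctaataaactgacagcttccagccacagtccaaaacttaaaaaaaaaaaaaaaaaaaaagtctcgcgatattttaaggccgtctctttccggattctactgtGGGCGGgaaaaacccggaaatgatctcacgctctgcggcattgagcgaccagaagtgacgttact
The stretch of Ncl holds 3 GC boxes, and those of Nop56 and Nop58 hold 1 each. A GC box on either strand occurs in 25.6% of the 32851 promoter stretches of the same length in the table. The E-box CACGTG, a site known to be read by Myc, has 0 matches in each of these stretches, and 4.48% of all stretches hold it. The CCAAT box (letters CCAAT or ATTGG) likewise has 0 matches in each, against 29.2% of all stretches. None of the matches overlaps another. The motifs were chosen after the sequences had been read, and a match or its absence is a description of letters only. Bases nearer the start and those after it were not searched.

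Totals were 1261372 and 1136145 counts for control cells, and 1243186 and 1357034 after 1-nitropyrene. Of all IDs, 7719 passed the filter on low counts and were tested. Levels are given as CPM, counts scaled to a library of 1e6 after TMM normalisation, which sets libraries against each other by the bulk of genes. A single count was worth between 0.761 and 0.860 CPM. CPM does not correct for mRNA length, and no coding lengths were used here. Levels in CPM are thus compared for 1 gene between libraries and not between genes. Ratios and shares of counts among the 5 genes, given below, are not corrected for length either. They are read for how they differ between the groups, not as relative levels of the genes. All 5 genes passed the filter. Ncl, Npm1, Nop56 and Nop58 lay in the highest of 4 equal bins of tested genes by mean count (at least 92), and Fbl in the bin below it. For 1 value in 2 against 2 libraries, the smallest p of an exact permutation test (two-sided) is 0.33, so the tests below come from edgeR's quasi-likelihood fit across all tested genes, with Benjamini-Hochberg adjustment over them and a call at an adjusted p under 0.05.

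Footprints on Ncl and Npm1 rose in 1-nitropyrene cells, by 1.26-fold and 1.52-fold. Fbl had a higher mean level in 1-nitropyrene cells, and Nop56 and Nop58 lower ones, without passing the test. Thus 2 of the 5 genes were called higher and 0 lower. Among all tested genes 9.68% were called higher and 7.58% lower, and among those in the highest count bin 24.7% were higher and 11.7% lower. With 5 genes there are too few to set their share apart from that background. The median log2 fold change of the 5 genes was 0.34, beside -0.0076 over all tested genes and 0.082 in the highest count bin.

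Nucleolin footprints were the most deeply counted of the 5, with 1809 and 1567 counts on Ncl in control cells against 1967 and 2171 in 1-nitropyrene cells. After scaling, its level was 1376 and 1322 CPM in control cells and 1693 and 1719.6 CPM in 1-nitropyrene cells. Both treated libraries lay above both controls, and the gap between the nearest libraries of the groups, 317 CPM, was wider than the spread within either group. The group means were 1349 ± 38.1 and 1706 ± 19.1 CPM (SD, n = 2 each). The log2 fold change was 0.34 ± 0.043 SE (edgeR quasi-likelihood test, adjusted p = 6.62e-13), with a 95% interval from 1.19- to 1.34-fold.

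Npm1, the gene of the granular-layer scaffold nucleophosmin, showed the larger of the called increases. It had 277 and 225 counts in control libraries and 349 and 390 in 1-nitropyrene libraries, which after scaling was 211 and 190 CPM against 300.3 and 309 CPM. The treated libraries were again both above the controls, and 89.6 CPM separated the nearest libraries of the groups. Means were 200.3 ± 14.8 CPM in control cells and 305 ± 6.08 CPM in 1-nitropyrene cells (SD, n = 2 each). The log2 fold change was 0.60 ± 0.10 SE (edgeR quasi-likelihood test, adjusted p = 2.66e-07), with an interval from 1.32- to 1.75-fold. Of all tested genes, 89.2% had a smaller log2 fold change than Npm1, and 76.6% had a smaller one than Ncl.

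**Figure D1:**
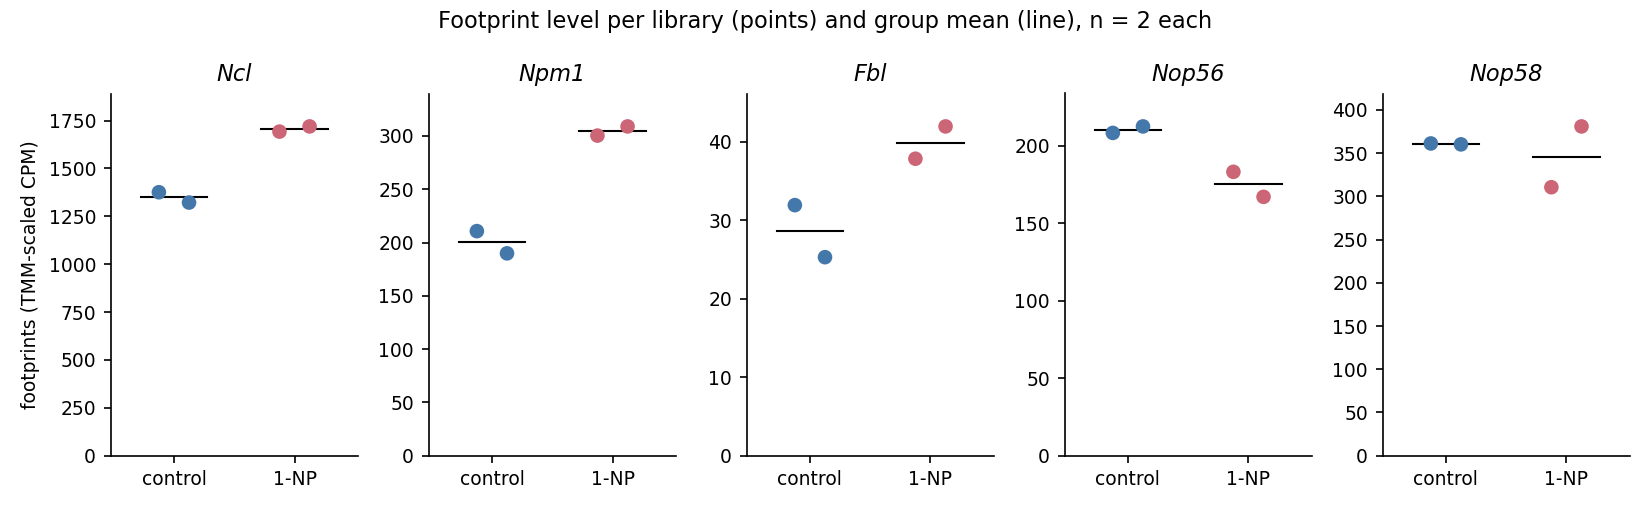
Footprint level (TMM-scaled CPM, axes from 0, a separate scale per gene) of Ncl, Npm1, Fbl, Nop56 and Nop58 in each control and 1-nitropyrene (1-NP) library, as points, with the mean of each group as a line (n = 2 each). The groups do not overlap for Ncl, Npm1 and Fbl (treated above) and Nop56 (treated below), whereas the treated libraries of Nop58, at 311 and 381 CPM, lie on either side of the controls.

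Fbl, Nop56 and Nop58 encode proteins of the box C/D particle, and none of them passed the test. Fbl, which encodes the methyltransferase, was the most thinly counted, with 42 and 30 counts in control libraries and 44 and 53 in 1-nitropyrene libraries. Its level was 31.9 and 25.3 CPM in control cells and 37.9 and 42.0 CPM in 1-nitropyrene cells, so that the groups did not overlap but lay 5.92 CPM apart, less than the difference between the controls. Means were 28.6 ± 4.69 and 39.9 ± 2.91 CPM (SD, n = 2 each), and the log2 fold change of 0.47 ± 0.28 SE did not pass the test (edgeR quasi-likelihood test, adjusted p = 0.254). The 95% interval ran from 0.944- to 2.04-fold and so held the fold changes of both Ncl and Npm1. At this depth, an increase of that size in fibrillarin footprints could not be told from no change.

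Nop56 gave 274 and 252 counts in control libraries and 213 and 211 in 1-nitropyrene libraries. Its level was 208 and 213 CPM in control cells and 183 and 167 CPM in 1-nitropyrene cells. The treated libraries were both below the controls, which differed from each other by less than the 25.1 CPM between the groups. Means were 210.5 ± 2.97 and 175 ± 11.4 CPM (SD, n = 2 each). The log2 fold change was -0.27 ± 0.12 SE, a level 16.8% lower, and missed the threshold (edgeR quasi-likelihood test, adjusted p = 0.105, unadjusted p = 0.0250). With libraries scaled to their total counts, Nop56 was called lower (log2 fold change -0.43 ± 0.12 SE, edgeR adjusted p = 0.0038), as were 14.2% of all tested genes, while 5.31% were called higher. That scaling moved the median log2 fold change of all tested genes from -0.0076 to -0.17, and the value for Nop56 moved with it.

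Nop58, the partner of Nop56, had 475 and 427 counts in control libraries and 361 and 481 in 1-nitropyrene libraries. Its controls were nearly equal at 361 and 360.2 CPM, while the treated libraries stood at 311 and 381 CPM. The treated libraries thus lay on either side of the controls, and the difference between them was wider than that between the group means of 361 ± 0.736 and 346 ± 49.7 CPM (SD, n = 2 each). The log2 fold change was -0.058 ± 0.087 SE (edgeR quasi-likelihood test, adjusted p = 0.710), with an interval from 0.854- to 1.08-fold. Its sign rested on a single library, since without 1-nitropyrene replicate 2 the value was 0.094 (edgeR adjusted p = 0.615). Across the 5 genes the groups did not overlap for 4, where 57.3% of all tested genes had groups that did not overlap.

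**Figure D2:**
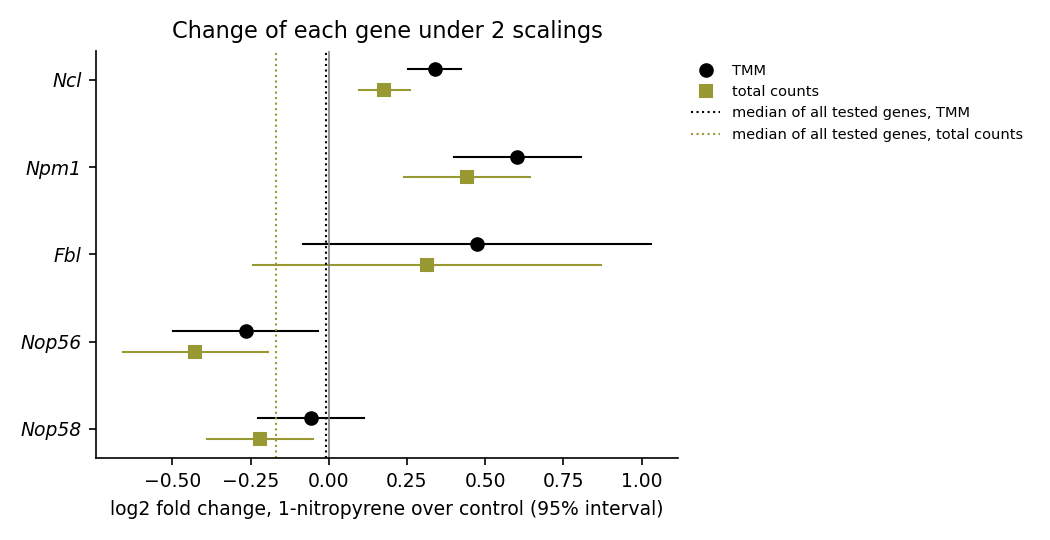
Log2 fold change of each gene, 1-nitropyrene over control, with its 95% interval, with libraries scaled by TMM (black circles) or by total counts (olive squares); dotted lines mark the median of all tested genes under each scaling (-0.0076 and -0.17). Ncl and Npm1 lie above 0 under both scalings, and total counts move every gene to the left by nearly the same amount.

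The direction for Ncl and Npm1 held under total counts too, at 0.18 and 0.44 (edgeR adjusted p = 4.60e-04 and 4.26e-04). Relative to the median of all tested genes, the values were 0.35 for Ncl, 0.61 for Npm1, 0.48 for Fbl, -0.26 for Nop56 and -0.05 for Nop58 under both scalings. Against the median of the highest count bin they were 0.26, 0.52, 0.39, -0.35 and -0.14 in the same order. As the scaling moves every gene by nearly the same amount, these relative values are the same by construction.

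The ratio of 2 genes' counts within a library does not depend on any scaling, and shows directly whether genes of this group moved apart. For every count on Nop56 there were 6.60 and 6.22 counts on Ncl in control cells, and 9.23 and 10.3 in 1-nitropyrene cells. The ratio of Ncl to Nop56 was thus higher in both treated libraries, by 1.52-fold (log2 difference 0.60 ± 0.13 SE, 95% interval 1.28 to 1.80). The ratio of Npm1 to Nop56 counts was 1.01 and 0.893 in control cells, and stood at 1.64 and 1.85 in 1-nitropyrene cells. This was the widest shift of the 10 ratios formed, at 1.83-fold (log2 difference 0.87 ± 0.16 SE, interval 1.47 to 2.26). The 10 ratios share genes and are not independent. Each log2 difference is that between the edgeR log2 fold changes of the 2 genes, and its error combines those of the fits. Those errors come from the trend over all tested genes, so the intervals do not reflect the spread of the library ratios shown. The intervals are not adjusted for the number of ratios. No ratios were formed among other tested genes, so how often such pairs move apart as far is not known. Whether the shifts are particular to this group was not tested.

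Nop58 stood to Ncl and Npm1 in the same direction as Nop56 did. The ratio of Ncl to Nop58 was 3.81 and 3.67 in control libraries and 5.45 and 4.51 in 1-nitropyrene libraries, a 1.32-fold shift (interval 1.15 to 1.50). That of Nop58 to Npm1 was 1.71 and 1.90 in control libraries and 1.03 and 1.23 in 1-nitropyrene libraries, 0.633 of its control value (interval 0.527 to 0.760). In each of these ratios the groups did not overlap. Taken from the counts with 1 library left out, the log2 difference of Ncl to Nop58 ran from 0.27 to 0.54. For Nop58 to Npm1 it ran from -0.80 to -0.55.

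Between the scaffold partners themselves no shift was resolved. Nop58 to Nop56 was 1.73 and 1.69 in control libraries and 1.69 and 2.28 in 1-nitropyrene libraries. Replicate 2 of 1-nitropyrene thus lay within the range of the controls, and replicate 3 stood apart. The log2 difference was 0.21 ± 0.15 SE (interval 0.946- to 1.41-fold), so changes within that range could not be told from none.

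Within the box C/D particle, the ratio of Nop56 to Fbl was 6.52 and 8.40 in control libraries and 4.84 and 3.98 in 1-nitropyrene libraries. It was lower in both treated libraries, at 0.599 of its control value, with a wide interval from 0.394 to 0.910. The ratio of Nop58 to Fbl, 11.3 and 14.2 in control libraries and 8.20 and 9.08 in treated ones, was also lower in both, but its interval from 0.462 to 1.04 included no shift. Those of Ncl to Fbl and of Npm1 to Fbl overlapped between the groups. Ncl and Npm1, both called higher, differed a little from each other: there were 6.53 and 6.96 counts on Ncl for each on Npm1 in control libraries and 5.64 and 5.57 in 1-nitropyrene libraries, 0.833 of the control value (interval 0.715 to 0.970).

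**Figure D3:**
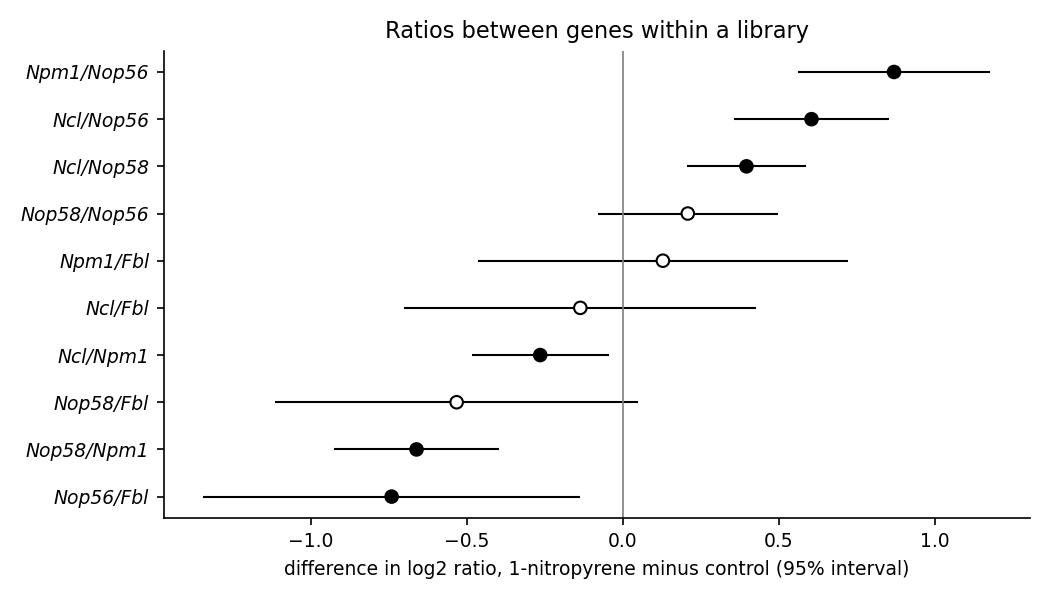
Difference between 1-nitropyrene and control in the log2 ratio of 2 genes, for the 10 ratios among the 5 genes, with 95% intervals. Each value is the difference between the edgeR log2 fold changes of the 2 genes. The intervals rest on the trend over all tested genes, not on the spread of the library ratios. Filled circles mark intervals that leave out 0. The ratios between Ncl or Npm1 and Nop56 or Nop58 all shift toward Ncl and Npm1. That is below 0 for Nop58 to Npm1 and above 0 for the others. The interval of Nop58 to Nop56 includes 0.

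The make-up of the footprints on the 5 genes differed in the same way, as shares that sum to the whole. Of all counts on the 5 genes, Ncl held 62.9% and 62.7% in control libraries and 67.0% and 65.7% in 1-nitropyrene libraries, and Npm1 9.63% and 9.00% against 11.9% and 11.8%. Nop56 held 9.52% and 10.1% against 7.26% and 6.38%, and Nop58 16.5% and 17.1% against 12.3% and 14.5%. Fbl held 1.46% and 1.20% against 1.50% and 1.60%. The groups did not overlap for any of the 5 shares. These sum to the whole and so are not independent of each other or of the ratios above. For Fbl the nearest libraries, at 1.46% and 1.50%, rest on 42 and 44 counts. How often such shares part between the groups among other genes was not computed. The 5 genes together held 0.228% and 0.220% of all counts in control libraries and 0.236% and 0.244% in 1-nitropyrene libraries. Their summed share was higher in both treated libraries, by 0.0157 percentage points between the group means, and Ncl held most of it. The 2 IDs with the most counts in the table took 29.7% of the counts in either control library and 32.9% and 33.0% in the treated ones. Of the counts outside these IDs, the 5 genes held 0.324% and 0.313% in control libraries and 0.352% and 0.364% in treated ones, a difference of 0.0389 percentage points.

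**Figure D4:**
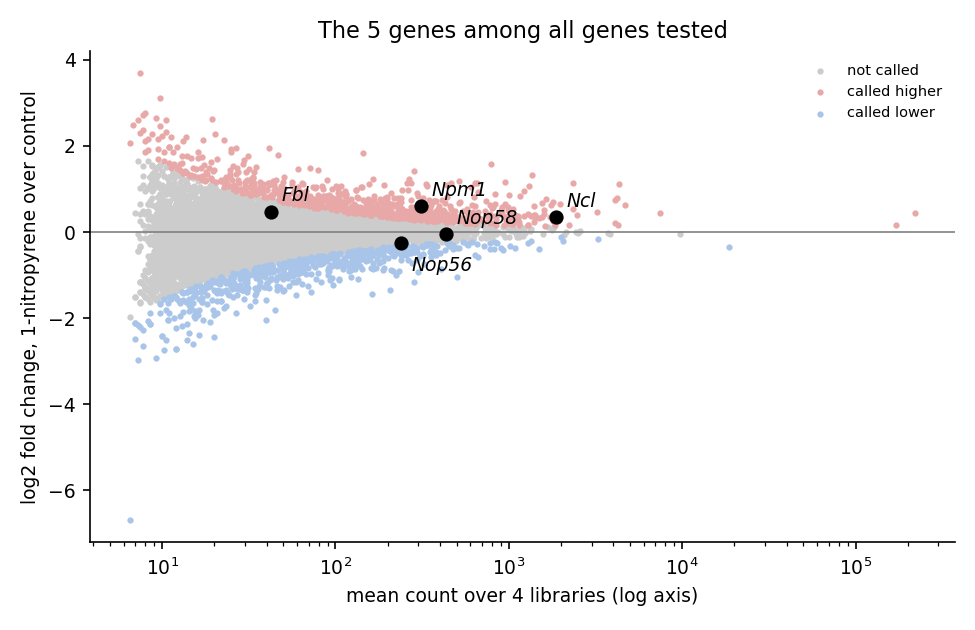
Log2 fold change, 1-nitropyrene over control, against mean count over the 4 libraries (log axis) for the 7719 genes tested, with genes called higher in red, called lower in blue and not called in grey; the 5 nucleolar genes are black. Ncl and Npm1 lie among the called genes, while Fbl, at a mean count of 42.25, lies where only larger changes were called.

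Likeness was measured as the distance between a gene's log2 CPM, centred over the 4 libraries, and the median profile of the 5 genes, among the 1792 other tested genes whose mean count reached 100. The nearest was ENSMUSG00000018707 (distance 0.039), with 200.03 and 183 CPM in control libraries and 235 and 242 CPM in 1-nitropyrene libraries. The next was ENSMUSG00000022283 (distance 0.044), with 840.4 and 785 CPM against 1012.8 and 1013 CPM. By the same measure Ncl lay at 0.067, Fbl at 0.23, Npm1 at 0.30, Nop58 at 0.43 and Nop56 at 0.59 from the median profile. The profile was thus close to that of Ncl and far from those of Nop56 and Nop58. Both IDs named here are closer to it than any of the 5 genes, but they were picked as the nearest of the 1792.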

How the data were processed

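Ribosome footprints were measured in 4 libraries of MLE-12 cells, 2 per group. The authors deposited whole-number counts per Ensembl gene ID, not normalized, with 1 column per library and 0 other sample columns. Per the submitters' processing notes, cutadapt, Bowtie, HISAT2, featureCounts and DESeq2 were used with build mm10. Per the labels' protocols, cells were washed with cycloheximide, ribosomal RNA was depleted and a small RNA kit was used. Their versions and settings, the annotation, fragment lengths, strand use and the treatment of multiple matches are not stated in the sources used here.

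Genes were kept with edgeR's filterByExpr (minimum count 10, minimum total 15) and libraries were scaled with TMM. Groups were compared by edgeR's quasi-likelihood F test without covariates (R 4.3.3, edgeR 4.0.16), tested on simulated data first. Standard errors are the absolute log2 fold change over the root of F. The prior degrees of freedom were infinite, so each gene took its spread from the trend. Alternatives were DESeq2 1.42.0, limma-voom (limma 3.58.1), other scalings and filters, and leaving out each library. DESeq2 without its own filter was chosen after seeing the data. Libraries of a group differed by more than counting noise (chi-square per degree of freedom 1.55 and 1.61), so none was taken as a copy of another; this does not tell separate cultures from repeat libraries of 1 culture.

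The 5 genes are named by rule, and 2 others by likeness. Genes and lists were chosen with earlier results of these data known. RefSeq's table (49997 genes, 0 with an Ensembl ID) matched the 5 symbols, and promoter sequences were read for 3 of them.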

Additional observations from a re-analysis of the deposited data

How the results depend on the processing

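Ncl and Npm1 kept their direction and their call under all 13 alternatives. Their log2 fold changes ranged from 0.18 to 0.37 and from 0.44 to 0.68, and their highest adjusted p were 4.60e-04 (edgeR, total counts) and 0.0039 (DESeq2). Fbl stayed higher and uncalled under 12 (0.31 to 0.66; edgeR, limma and DESeq2 adjusted p 0.243 to 0.664); DESeq2 with its own filter gave no adjusted p. Nop56 stayed lower under 13 and was called by edgeR with total counts (-0.43, adjusted p = 0.0038) and with total counts without the 2 IDs with the most counts (-0.36, adjusted p = 0.019), so that 1 gene was called lower under each; adjusted p ran up to 0.526. Both settings also lower the median of all tested genes, to -0.17 and -0.10. Nop58 passed in none of 13 (-0.22 to 0.094) and turned its sign only without 1-nitropyrene replicate 2 (0.094). Leaving out 1 library gave -0.21 to 0.094 for Nop58 and -0.32 to -0.20 for Nop56. Taken from the counts rather than the edgeR fits, the difference in log2 ratio of Nop58 to Nop56 was 0.20 with all libraries. It turned to -0.016 without 1-nitropyrene replicate 3 and was 0.41 without replicate 2. The summed share rose by 0.0157 percentage points, or 0.0389 without the 2 IDs with the most counts. Over the 7719 genes tested, 1332 were called (747 higher, 585 lower). Total counts gave 410 higher and 1098 lower of the same genes. DESeq2 gave 318 (239 and 79) of only 2674 genes with an adjusted p, and 345 (243 and 102) on the genes edgeR tested. Leaving out 1 library gave 572 to 834 (382 to 480 higher, 190 to 354 lower) (the library left alone in its group was taken to vary like those of the other). The cause of these differences was not tested. No paired analysis was possible because 2 is the only replicate number in both groups. The planned pathway lists and cell markers were not run, since the IDs carry no symbols. Depth limits Fbl most.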
